A study of Mus musculus with 24 samples.

Results

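Toll-like receptor 4 signalling was followed in mouse lumbar spinal cord through 10 genes: Tlr4, its partners Ly96 and Cd14, the receptors Tlr2, Tlr1, Tlr6 and Tlr3, the adaptors Myd88 and Ticam1, and the kinase Irak4. The members were taken by gene symbol from the count table, which holds 55418 genes, and all 10 were among the 25372 genes that passed the filter on low counts. TLR4 is the receptor of bacterial lipopolysaccharide on macrophages and microglia, and it binds its ligand through the small secreted protein MD-2, the product of Ly96. CD14 hands the ligand to that pair, MYD88 and IRAK4 carry the signal to NF-kB and inflammatory cytokine genes, and TICAM1 (TRIF) carries it to interferon genes. Paclitaxel, a cancer drug that stabilises microtubules and causes painful neuropathy, is a known ligand of the mouse TLR4 and MD-2 pair.

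RNA was sequenced from 24 C57BL/6J mice aged 8 to 10 weeks, 3 in each of 8 groups that crossed genotype, treatment and sex. Knockout mice lacked Chrna7, the alpha7 nicotinic acetylcholine receptor subunit gene, in myeloid cells, and were set against wild-type mice. The labels do not name the Cre driver, and other cord cells of the knockout keep the gene. Paclitaxel mice received 4 injections of 1 mg/kg, 1 every other day, vehicle mice received the solvent of Kolliphor, ethanol and water, and cords were collected 7 days after injections began. Libraries held 88812295 to 112158154 counts. By their numbers in the sample descriptions, all female vehicle and male paclitaxel libraries came before all male vehicle and female paclitaxel libraries. The labels do not say what these library numbers stand for. The male minus female response to paclitaxel sets the same libraries against each other, so it cannot be told apart from library number. One library, wild-type female paclitaxel replicate 3, stood apart. Its 9 sensory ganglion markers in the table summed to 4114 CPM (CPM are counts scaled by the total of the library), against 94.2 to 140.0 CPM in the other 23 libraries, and its microglia markers summed to 129 CPM against 401 to 579 CPM. It is called the ganglion-like library here, and results are given over the 23 cords unless stated. The targeted gene Chrna7 lay at 9.09 to 14.5 CPM (median 13.1) in knockout cords and at 9.38 to 15.9 CPM (median 14.2) in wild-type cords. Those ranges overlapped, the log2 ratio was -0.11 (SE 0.06, edgeR adjusted p = 0.9997), and neurons transcribe the gene too, so whole cord does not check a loss from myeloid cells. Lyz2, the macrophage lysozyme gene, was the one marker gene called between genotypes over both treatments, at 19.02 ± 4.78 CPM in knockout cords (SD, n = 12) and 39.5 ± 10.0 CPM in wild-type cords (n = 11, log2 ratio -1.06, edgeR adjusted p = 0.00752).

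Tlr1 and Tlr6 are neighbours on the minus strand of chromosome 5 (GRCm38, Tlr1 at 64924679 to 64933563, Tlr6 at 64952031 to 64960097) and share long stretches of coding sequence, which bears on their counts. Their coding sequences held 9 identical runs of at least 30 bases, and the longest was 229 bases, against 16 bases for the longest run shared by any other pair of members. The 2 stretches are shown because a read wholly inside the run, taken by itself, matches both genes equally. The counting command recorded with the table did not ask for reads with several matches, which the counter leaves out by default. Both are written 5′ to 3′ on the coding strand, Tlr1 at chr5:64925517-64925785 and Tlr6 at chr5:64953808-64954076, as in the GENCODE M21 transcripts. Capitals mark the identical run, and lower case marks 20 bases on each side.
Tlr1: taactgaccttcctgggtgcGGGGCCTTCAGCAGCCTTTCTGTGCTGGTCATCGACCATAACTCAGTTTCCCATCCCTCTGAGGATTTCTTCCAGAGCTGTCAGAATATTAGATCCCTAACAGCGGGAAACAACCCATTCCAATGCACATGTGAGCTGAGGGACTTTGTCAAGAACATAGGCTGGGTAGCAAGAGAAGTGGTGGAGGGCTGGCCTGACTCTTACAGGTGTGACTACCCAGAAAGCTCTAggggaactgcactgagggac
Tlr6: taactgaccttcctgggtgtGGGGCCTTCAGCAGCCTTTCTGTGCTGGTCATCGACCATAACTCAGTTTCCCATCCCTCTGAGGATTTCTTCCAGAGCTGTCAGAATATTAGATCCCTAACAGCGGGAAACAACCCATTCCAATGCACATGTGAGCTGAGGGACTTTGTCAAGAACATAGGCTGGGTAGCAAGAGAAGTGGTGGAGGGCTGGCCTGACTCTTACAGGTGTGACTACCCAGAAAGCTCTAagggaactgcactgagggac
Each flank differed at 1 base, the one next to the run. Of all windows of 50 bases in the Tlr1 coding sequence, 19.4% were present in that of Tlr6, and 11.3% of windows of 100 bases. The counts of these genes are therefore uncertain and may lie below their true levels.

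Corrected for length, the double-stranded RNA receptor gene Tlr3 was the most abundant of the 10 and Tlr6 the least. Levels were compared as CPM per kilobase of exon (RPKM). Tlr3 had a median of 6.10 RPKM (range 4.79 to 6.79), and Myd88 followed with 2.62 RPKM, Ticam1 with 1.94 RPKM, Cd14 with 1.77 RPKM, Tlr2 with 1.48 RPKM and Ly96 with 1.36 RPKM. Irak4 had a median of 0.857 RPKM, Tlr4 of 0.431 RPKM (range 0.283 to 0.529), Tlr1 of 0.411 RPKM and Tlr6 of 0.206 RPKM. The range of Tlr3 did not overlap that of Myd88, and the range of Irak4 did not overlap that of Tlr4. Some neighbours in this order changed places between cords, with Ticam1 above Cd14 in 16 of 23 cords, Tlr2 above Ly96 in 16 of 23, and Tlr4 above Tlr1 in 12 of 23. Among 12 Toll-like receptor genes in the table, Tlr4 ranked 6th by median RPKM. The places of Tlr1 and Tlr6 in both orders carry the limit on their counts given above. Above it lay Tlr3, Tlr2, the single-stranded RNA receptor gene Tlr7 (1.01 RPKM), the ribosomal RNA receptor gene Tlr13 (0.732 RPKM) and the CpG DNA receptor gene Tlr9 (0.513 RPKM). Below it lay Tlr1, the flagellin receptor gene Tlr5 (0.379 RPKM), Tlr6, Tlr12 (0.203 RPKM), Tlr8 (0.0617 RPKM) and Tlr11 (0.00675 RPKM).

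**Figure D1:**
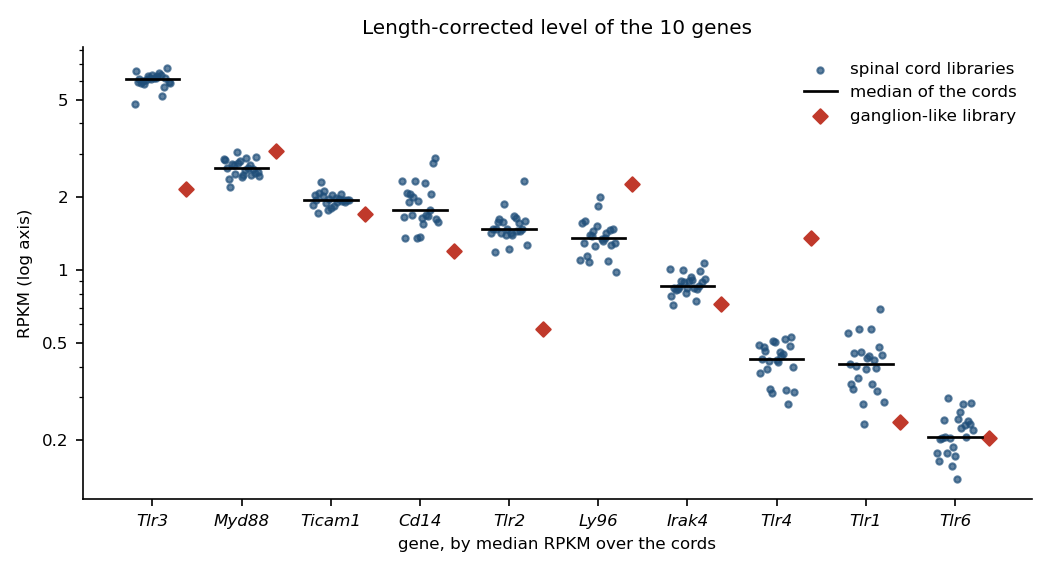
RPKM (log axis) of the 10 genes, ordered by median, with a point for each of the 23 spinal cord libraries, a bar at their median and a diamond for the ganglion-like library. Tlr3 lies above the other genes in the cords, with a median of 6.10 RPKM, and the diamond of Tlr4 lies above its cords.

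The spread between cords differed between genes. The coefficient of variation was 25.8% for Tlr1, 22.005% for Cd14, 19.6% for Tlr6, 17.4% for Tlr4, 17.1% for Ly96 and 15.3% for Tlr2. It was smaller for the intracellular genes, at 9.64% for Irak4, 7.88% for Myd88 and 6.43% for Ticam1, and 7.04% for Tlr3. Counting error at the median count would give 6.70% for Tlr4 (median 223 counts), 8.80% for Tlr1 (129 counts) and 11.7% for Tlr6 (73 counts), so the spread of each exceeded it. These figures cover counting error only. In whole tissue, fewer cells of a type and less RNA per cell cannot be told apart.

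Tlr4, on chromosome 4 (GRCm38, 66827584 to 66930284, plus strand), had a lower mean with paclitaxel in both genotypes, without passing the test across all genes. Knockout paclitaxel cords lay at 1.74 to 2.73 CPM (median 2.22) and knockout vehicle cords at 2.18 to 2.83 CPM (median 2.63). The wild-type paclitaxel cords had 1.57, 1.78, 2.32, 2.55 and 2.71 CPM, against 1.75 to 2.94 CPM (median 2.49) in wild-type vehicle cords. The groups overlapped in both genotypes, and the 5 lowest cords of all, from 1.57 to 1.81 CPM, were males, 4 of them given paclitaxel and 1 given vehicle. Over both genotypes Tlr4 averaged 2.19 ± 0.411 CPM in paclitaxel cords (n = 11) and 2.52 ± 0.351 CPM in vehicle cords (SD, n = 12), which gave a log2 ratio, paclitaxel over vehicle, of -0.20 (SE 0.10, unadjusted edgeR p = 0.0463, adjusted p = 0.483). The 95% interval of that change ran from 0.761-fold to 0.998-fold. In knockout cords alone the log2 ratio was -0.24 (SE 0.13, edgeR adjusted p = 0.507), and in wild-type cords alone -0.16 (SE 0.14, edgeR adjusted p = 0.8003). The difference between these responses was -0.08 (SE 0.19, edgeR adjusted p = 0.930). By sex, the Tlr4 median was 1.79 CPM in male paclitaxel and 2.59 CPM in male vehicle cords. In females it was 2.39 CPM with paclitaxel and 2.55 CPM with vehicle. The male minus female response was -0.22 (SE 0.19, edgeR adjusted p = 0.568), or -0.63 with the ganglion-like library included. That response cannot be told apart from library number. With the ganglion-like library put back, the log2 ratio over both genotypes was 0.00 (SE 0.17) and that in wild-type cords 0.25 (SE 0.24), so the direction in wild-type rests on that choice. Border macrophage markers had the same sign as Tlr4 here: 9 of 10 had a negative log2 ratio with paclitaxel, with a median of -0.10 and none called. Their summed level was 47.5 to 98.2 CPM with paclitaxel and 44.9 to 99.3 CPM with vehicle. Their part in the result was not tested.

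Neither genotype nor sex gave a called difference in Tlr4. Knockout cords averaged 2.38 ± 0.371 CPM (n = 12) and wild-type cords 2.34 ± 0.465 CPM (n = 11), a log2 ratio of 0.02 (SE 0.10, edgeR adjusted p = 0.9997) whose 95% interval ran from 0.884-fold to 1.16-fold. Males had 2.24 ± 0.501 CPM (n = 12) and females 2.49 ± 0.237 CPM (n = 11), a log2 ratio of -0.17 (SE 0.10, edgeR adjusted p = 0.476). With the ganglion-like library put back, the genotype value was -0.19 (SE 0.17, edgeR adjusted p = 0.924), on the other side of 0, and the sex value was -0.37 (SE 0.17, edgeR adjusted p = 0.586). The male cords were the more spread, at 1.57 to 2.94 CPM, and their range held the whole female range of 2.10 to 2.90 CPM. All 10 border macrophage markers had a negative log2 ratio in males, with none called, and summed to 44.9 to 99.3 CPM in males and 48.4 to 80.0 CPM in females. Their part in the difference was not tested.

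**Figure D2:**
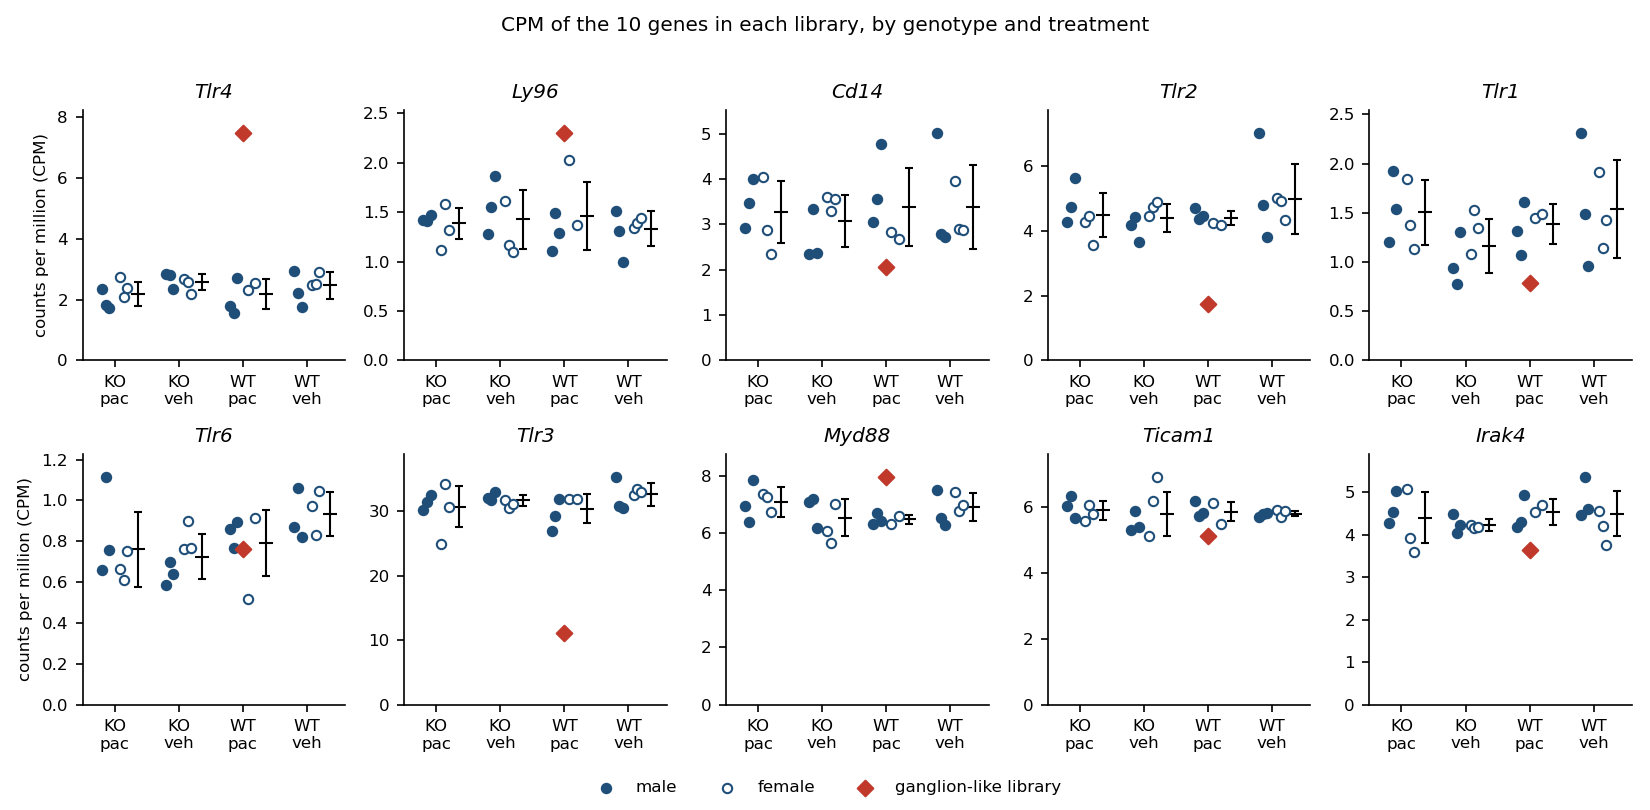
CPM of each gene in every library, in 10 panels, with knockout paclitaxel, knockout vehicle, wild-type paclitaxel and wild-type vehicle from left to right (pac, paclitaxel; veh, vehicle; KO, knockout; WT, wild-type). Filled points are males, open points females, bars the mean ± SD of the cords, and the diamond is the ganglion-like library, which is outside the mean. The 4 groups overlap for all 10 genes, and the diamond of Tlr4 at 7.48 CPM stands above every cord.

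Ly96, which encodes MD-2 and lies on chromosome 1 (16688051 to 16709611, plus strand), and Cd14 showed no called change with the drug or the genotype. Ly96 lay at 1.12 to 1.59 CPM (median 1.42) in knockout paclitaxel cords and at 1.098 to 1.87 CPM (median 1.42) in knockout vehicle cords. In wild-type paclitaxel cords it lay at 1.11, 1.29, 1.37, 1.495 and 2.03 CPM, against 0.997 to 1.51 CPM (median 1.36) in wild-type vehicle cords. The highest of all cords, wild-type female paclitaxel replicate 1 at 2.03 CPM, stood beside others that overlapped the vehicle group. Over both genotypes the log2 ratio of Ly96 with paclitaxel was 0.06 (SE 0.10, edgeR adjusted p = 0.894), with a 95% interval from 0.899-fold to 1.21-fold. Between knockout and wild-type cords it was -0.00 (SE 0.10, edgeR adjusted p = 0.9997). Cd14, the lipopolysaccharide coreceptor, lay at 2.34 to 4.04 CPM (median 3.20) in knockout paclitaxel cords and at 2.35 to 3.601 CPM (median 3.31) in knockout vehicle cords. Wild-type paclitaxel cords had 2.67, 2.84, 3.06, 3.57 and 4.78 CPM of Cd14, against 2.73 to 5.01 CPM (median 2.89) in wild-type vehicle cords. All 4 groups overlapped, and its log2 ratio with paclitaxel was 0.01 (SE 0.12, edgeR adjusted p = 0.983). By sex, Cd14 had a median of 3.52 CPM in male paclitaxel and 2.76 CPM in male vehicle cords, against 2.84 CPM in female paclitaxel and 3.43 CPM in female vehicle cords. The male response to paclitaxel exceeded the female one by a fitted 0.47 (SE 0.23, edgeR adjusted p = 0.257). Over the alternatives it ranged from 0.38 to 0.64. The highest value came without wild-type male vehicle replicate 1, the highest Cd14 cord (edgeR adjusted p = 0.0602). Microglia markers had the same sign as Cd14: 11 of 14 had a positive value in this comparison, 3 of them called (Csf1r, Cx3cr1 and Selplg), where 4.96% of all tested genes were called. The calls over all genes numbered 1259 here, 0 with the ganglion-like library included, 248 without wild-type female paclitaxel replicate 1 and 2419 without knockout male vehicle replicate 1. The summed level of the microglia markers was 465 to 530 CPM in male paclitaxel and 401 to 579 CPM in male vehicle cords, against 425 to 469 CPM in female paclitaxel and 441 to 505 CPM in female vehicle cords. All 10 endothelial markers were positive too, 2 of them called, and summed to 391 to 434 CPM in male paclitaxel and 271 to 376 CPM in male vehicle cords, against 331 to 527 CPM in female paclitaxel and 361 to 434 CPM in female vehicle cords. Of the skeletal muscle markers 9 of 10 were positive and 2 were called, with sums of 97.02 to 157 CPM in male paclitaxel and 102 to 115 CPM in male vehicle cords, against 105 to 124 CPM in female paclitaxel and 94.8 to 128 CPM in female vehicle cords. The part of these markers in the result was not tested, and this comparison cannot be told apart from library number.

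Tlr2, Tlr1 and Tlr6, which form the receptor pairs for bacterial lipopeptides, were also not called. Tlr2 lay at 3.57 to 5.63 CPM (median 4.37) in knockout paclitaxel cords and 3.66 to 4.90 CPM (median 4.44) in knockout vehicle cords. It lay at 4.19, 4.26, 4.37, 4.46 and 4.71 CPM in wild-type paclitaxel cords, against 3.82 to 7.02 CPM (median 4.86) in wild-type vehicle cords. One cord, wild-type male vehicle replicate 1, stood above the rest for Tlr2 at 7.02 CPM, and it was also the highest of the 23 for Tlr4, Cd14, Tlr1 and Tlr3. Tlr1 had medians of 1.46 CPM in knockout paclitaxel and 1.19 CPM in knockout vehicle cords, and of 1.45 CPM in wild-type paclitaxel and 1.46 CPM in wild-type vehicle cords. Under vehicle, Tlr1 ranged over 0.780 to 1.52 CPM in knockout cords and 0.955 to 2.31 CPM in wild-type cords. The ranges overlapped between 0.955 and 1.52 CPM, 5 of 6 knockout cords lay below the wild-type median, and the log2 ratio was -0.43 (SE 0.19, edgeR adjusted p = 0.911), or -0.24 without wild-type male vehicle replicate 1. Tlr6 under vehicle lay at 0.583 to 0.900 CPM (median 0.728) in knockout cords and 0.818 to 1.06 CPM (median 0.920) in wild-type cords, a log2 ratio of -0.38 (SE 0.16, edgeR adjusted p = 0.911). These ranges overlapped only between 0.818 and 0.900 CPM. Under paclitaxel the same genotype difference was 0.11 (SE 0.20, edgeR adjusted p = 0.951) for Tlr1 and -0.03 (SE 0.17, edgeR adjusted p = 0.990) for Tlr6. Microglia markers were on the same side under vehicle, with 13 of 14 at a negative value, a median log2 ratio of -0.12, none called, and a summed level of 401 to 492 CPM in knockout vehicle and 441 to 579 CPM in wild-type vehicle cords. All 10 endothelial markers were negative as well, with a median of -0.23 and none called, and summed to 271 to 424 CPM in knockout vehicle and 337 to 434 CPM in wild-type vehicle cords. The border macrophage markers, which include Lyz2, summed to 44.9 to 72.5 CPM (median 56.0) in knockout vehicle and 60.7 to 99.3 CPM (median 75.7) in wild-type vehicle cords, with 6 of 10 at a positive log2 ratio, a median of 0.01 and none called. The part of these markers in the values was not tested.

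Differences between responses were largest for Tlr1 between genotypes and for Tlr6 between sexes, and neither was called. In knockout cords Tlr1 had a log2 ratio of 0.39 with paclitaxel (SE 0.19, edgeR adjusted p = 0.436), and in wild-type cords -0.15 (SE 0.20, edgeR adjusted p = 0.885). The response in knockout minus that in wild-type was 0.54 (SE 0.27, edgeR adjusted p = 0.598), or 0.35 without wild-type male vehicle replicate 1. For Tlr6 the male minus female response to paclitaxel was 0.49 (SE 0.24, edgeR adjusted p = 0.236), or 0.32 without wild-type female paclitaxel replicate 1 and 0.36 without knockout male paclitaxel replicate 2, the highest Tlr6 cord. Tlr6 had medians of 0.814 CPM in male paclitaxel and 0.758 CPM in male vehicle cords, against 0.662 CPM in female paclitaxel and 0.866 CPM in female vehicle cords. This difference between the sexes cannot be told apart from library number either. Tlr3 had the smallest errors of the 10. It lay at 24.9 to 34.3 CPM (median 31.1) in knockout paclitaxel and 30.5 to 33.0 CPM (median 31.7) in knockout vehicle cords. Wild-type paclitaxel cords had 26.98, 29.3, 31.9, 31.9 and 31.9 CPM of Tlr3 and wild-type vehicle cords 30.5 to 35.3 CPM (median 32.8). The paclitaxel groups reached lower but overlapped the vehicle groups, and over both genotypes the log2 ratio was -0.07 (SE 0.04, edgeR adjusted p = 0.548).

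The adaptors and the kinase lay within narrow ranges. Myd88, the adaptor that most Toll-like receptors share, lay at 6.38 to 7.85 CPM (median 7.10) in knockout paclitaxel cords and 5.65 to 7.20 CPM (median 6.60) in knockout vehicle cords. In wild-type paclitaxel cords it lay at 6.32, 6.33, 6.44, 6.60 and 6.70 CPM, against 6.28 to 7.51 CPM (median 6.86) in wild-type vehicle cords. With paclitaxel the median lay above that of vehicle in knockout cords and below it in wild-type cords, with overlap in both. The log2 ratio with paclitaxel was 0.12 (SE 0.07, edgeR adjusted p = 0.549) in knockout cords and -0.11 (SE 0.08, edgeR adjusted p = 0.755) in wild-type cords. Their difference was 0.23 (SE 0.11, edgeR adjusted p = 0.577). Ticam1, the adaptor of TLR3 and of internalised TLR4, had medians of 5.90 CPM in knockout paclitaxel and 5.63 CPM in knockout vehicle cords, and of 5.80 CPM in both wild-type paclitaxel and wild-type vehicle cords. Irak4, the kinase recruited by MYD88, had medians of 4.41 CPM in knockout paclitaxel and 4.21 CPM in knockout vehicle cords, and of 4.54 CPM in wild-type paclitaxel and 4.52 CPM in wild-type vehicle cords. With paclitaxel over both genotypes, Ticam1 had a log2 ratio of 0.02 (SE 0.05) and Irak4 of 0.04 (SE 0.06). Their edgeR adjusted p values were 0.946 and 0.890, and the 95% intervals ran from 0.939-fold to 1.09-fold for Ticam1 and from 0.938-fold to 1.12-fold for Irak4.

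**Figure D3:**
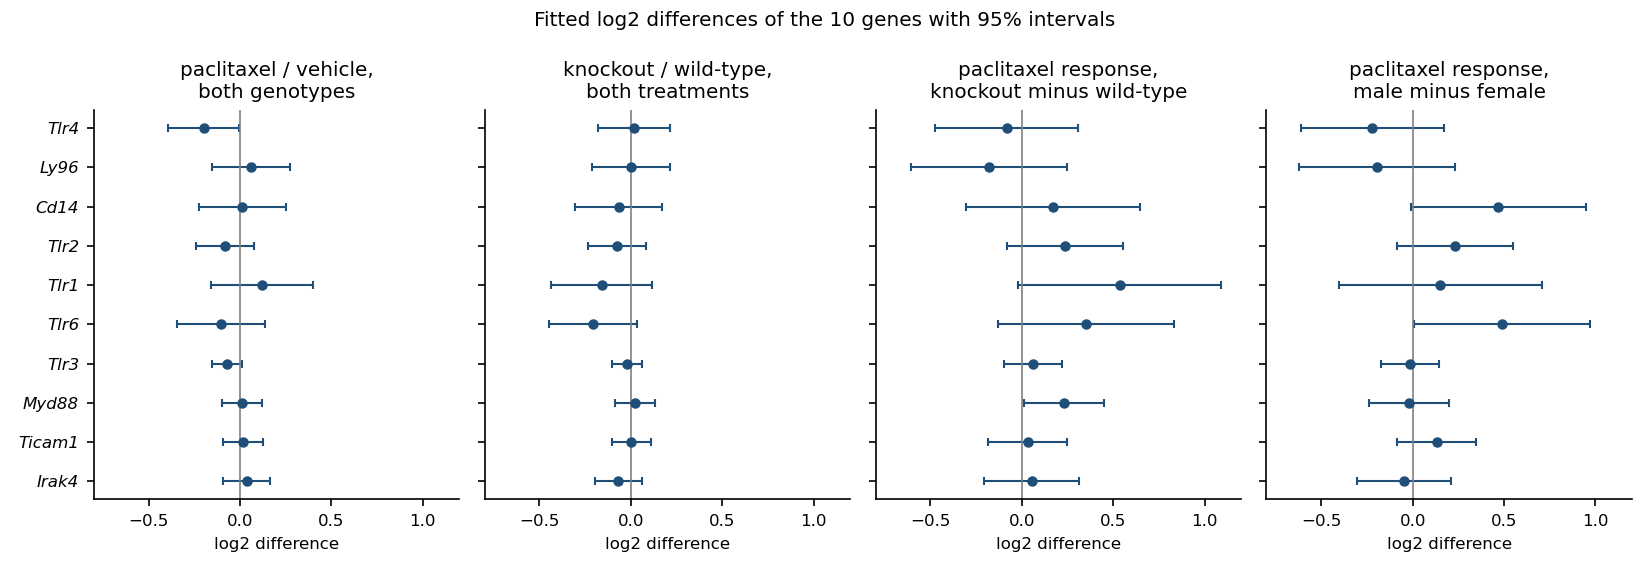
Fitted log2 differences of the 10 genes with 95% intervals over the 23 cords, for paclitaxel over vehicle, knockout over wild-type, and the paclitaxel response of knockout minus wild-type and of male minus female mice. The adaptors, Irak4 and Tlr3 have the narrow intervals, the interval of Tlr4 with paclitaxel ends just below 0, at -0.00, and Tlr1 has the wide interval of up to 1.09 in the difference between genotypes. The male minus female response cannot be told apart from library number.

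Across the 9 comparisons, no member was called at an edgeR adjusted p under 0.05, where few genes were called at all. The share of the 25372 tested genes that was called was 0% for paclitaxel in wild-type cords (2021 genes at an unadjusted p under 0.05 and 4 called by DESeq2), 0.0236% for paclitaxel in knockout cords and 0.0197% over both genotypes. It was 0.00788% for knockout against wild-type under vehicle, 0.00394% under paclitaxel and 0.0118% over both treatments. For the difference between genotypes in the paclitaxel response it was 0%, with 2134 genes at an unadjusted p under 0.05 and 0 called by DESeq2. For male against female cords 0.918% of genes were called, and for the difference between the sexes in the paclitaxel response 4.96%, a count that was 0 with the ganglion-like library included. A count of 0 of 10 members is thus near the background in each of them. Members with an unadjusted p under 0.05 numbered 1 of 10 for paclitaxel over both genotypes (Tlr4), where 10.2% of all genes had one. For knockout against wild-type under vehicle the number was 2 of 10, where 5.20% of all genes had one. These 2 were Tlr1 and Tlr6, the pair that shares coding sequence. Such members numbered 1 of 10 for paclitaxel in knockout cords (Tlr1, beside 11.3% of all genes), for the difference between genotypes in the paclitaxel response (Myd88, beside 8.41%) and for that between the sexes (Tlr6, beside 20.3%). In the other 4 comparisons the number was 0. DESeq2 called no member either. It gave an adjusted p for all 10 members in 6 comparisons, for 6 of them for paclitaxel in knockout cords, and for 7 of them for paclitaxel over both genotypes and for the difference between the sexes in the paclitaxel response. Over both genotypes, 6 members had a positive and 4 a negative log2 ratio with paclitaxel, with a median of 0.01 beside 0.01 for all tested genes. Between knockout and wild-type cords, 3 were positive and 7 negative, with a median of -0.04 beside -0.00 for all tested genes. The 95% intervals of the 10 members together spanned 0.761-fold to 1.32-fold for paclitaxel and 0.733-fold to 1.16-fold for the knockout.

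The rest of the pathway was described with 7 lists of 90 genes, of which 87 were tested. None of the 87 was called for paclitaxel or for the knockout in any of the 7 comparisons of these factors. With paclitaxel over both genotypes, 39 had a positive and 48 a negative log2 ratio, 8 had an unadjusted p under 0.05 (9.20%, beside 10.2% of all tested genes), and none was called by edgeR. Of the 13 adaptors and proximal kinases, 5 were positive and 8 negative. Tab1, an activator of the kinase TAK1, averaged 33.1 ± 2.07 CPM in paclitaxel cords (n = 11) and 29.99 ± 2.36 CPM in vehicle cords (SD, n = 12, log2 ratio 0.14, edgeR adjusted p = 0.203). Irak2, a kinase of the MYD88 complex, averaged 22.6 ± 1.79 CPM with paclitaxel and 20.5 ± 1.23 CPM with vehicle (log2 ratio 0.13, edgeR adjusted p = 0.207), and Traf3, an adaptor of the interferon branch, had a log2 ratio of -0.09 (edgeR adjusted p = 0.335). Both Tab1 and Irak2 overlapped between the treatments. Of 20 tested inflammatory targets, 7 were positive and 13 negative. Tnfaip2, a target of TNF, averaged 4.24 ± 0.691 CPM with paclitaxel and 3.49 ± 0.479 CPM with vehicle (log2 ratio 0.26, edgeR adjusted p = 0.192), and Ccl2, the monocyte chemokine gene, had -0.70 (edgeR adjusted p = 0.490). The cytokine genes were close to the floor, with medians of 12 counts for Tnf, 26 for Il1b and 10 for Il6 in a library, and Cxcl2, Ifnb1 and Tlr11 did not pass the filter, so changes in them may not be detectable at this depth.

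Among 11 endogenous ligands, 6 were positive and 5 negative with paclitaxel. The alarmin genes S100a8 and S100a9, which encode the subunits of calprotectin, had log2 ratios of 1.09 (SE 0.46, edgeR adjusted p = 0.439) and 1.02 (SE 0.43, edgeR adjusted p = 0.435). S100a8 ranged over 0.943 to 16.5 CPM with paclitaxel and 0.423 to 4.74 CPM with vehicle, so the vehicle range lay largely inside the paclitaxel one. These genes are made by neutrophils and stand on the list of monocyte and neutrophil markers too, of which 9 of 10 were positive and none called. The summed level of that list was 5.47 to 60.4 CPM with paclitaxel and 5.57 to 20.9 CPM with vehicle, and its part in the result was not tested. Vcan, the matrix proteoglycan versican, had a log2 ratio of -0.10 (edgeR adjusted p = 0.284). The remaining lists held no gene at an unadjusted p under 0.05 with paclitaxel: 8 of 14 genes of the NF-kB and IRF arm, 7 of 12 inhibitors, 3 of 9 tested other Toll-like receptors and chaperones and 3 of 8 coreceptors and ligand carriers were positive. Rel, an NF-kB subunit, came closest in its list with 0.12 (edgeR adjusted p = 0.491), and so did the stress-induced repressor Atf3 with -0.25 (0.591), Tlr9 with 0.15 (0.606) and the integrin gene Itgam with 0.11 (0.659).

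Between knockout and wild-type cords, 36 of the 87 genes had a positive and 51 a negative log2 ratio, and 2 had an unadjusted p under 0.05. Cd180, a receptor related to TLR4 that binds MD-1, averaged 3.13 ± 0.836 CPM in knockout cords (n = 12) and 3.62 ± 0.562 CPM in wild-type cords (SD, n = 11, log2 ratio -0.24, edgeR adjusted p = 0.9997). Tlr8 had a log2 ratio of -0.94 (SE 0.44, edgeR adjusted p = 0.9997) at medians of 0.203 CPM for knockout and 0.360 CPM for wild-type cords. The lowest p in the other lists belonged to Ticam2, the bridging adaptor of TLR4 and TICAM1, with -0.25, to Irf5 with -0.14, to Tnc with -0.14, to Ifit1 with -0.32 and to the phosphatase gene Dusp1 with 0.10, each with an edgeR adjusted p of 0.9997.

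**Figure D4:**
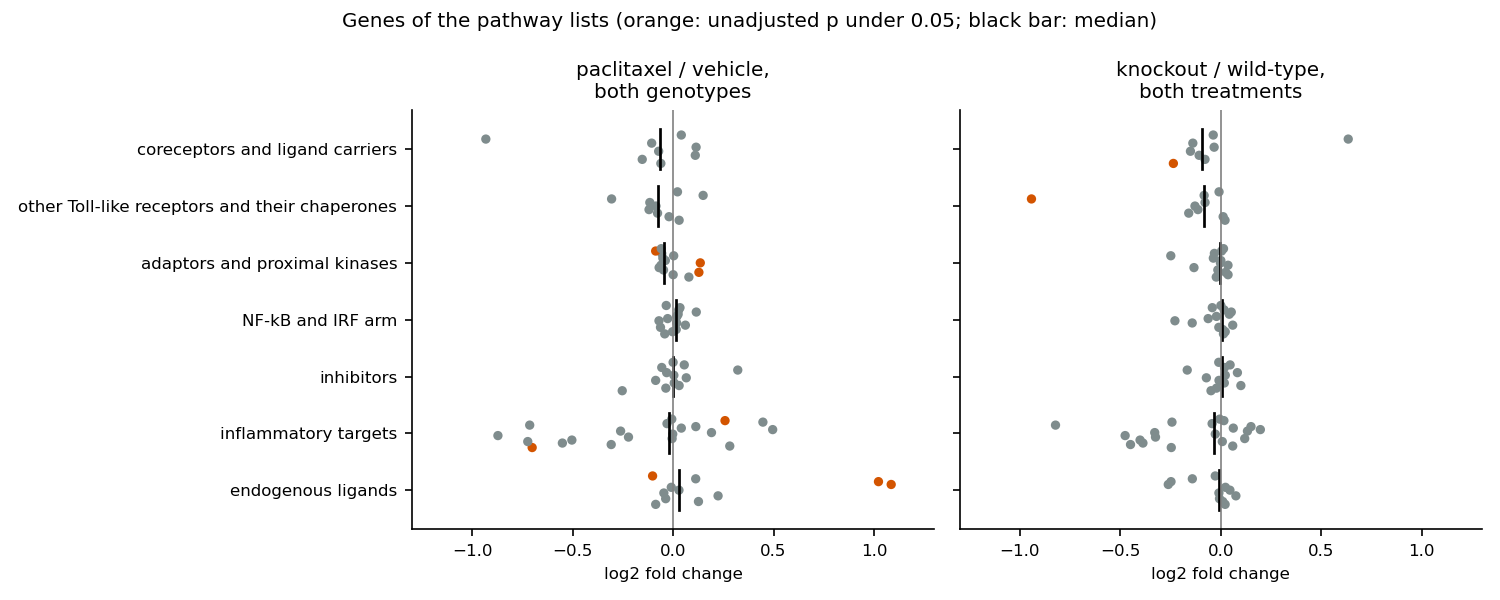
Log2 ratios of the 87 tested pathway genes in 7 lists over the 23 cords, for paclitaxel over vehicle and for knockout over wild-type, with a point per gene, orange where the unadjusted p is under 0.05, and a black bar at each list's median. The medians lie near 0, the pair of orange points near 1 among the endogenous ligands is S100a8 and S100a9, and no gene passed the adjusted threshold.

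Among the 9 comparisons, called pathway genes appeared only in the 2 that involve sex, where the most genes of the whole table were called too. For male against female cords 1 of 87 was called, where 0.918% of all tested genes were. Tlr7, an X-linked receptor gene for single-stranded RNA, was higher in males, at 3.27 to 9.64 CPM (median 7.17), than in females, at 3.08 to 4.40 CPM (median 3.69), with a log2 ratio of 0.82 (SE 0.16, edgeR adjusted p = 0.0257). Most male cords lay above the females, but the ranges overlapped at the low end. Tlr7 was not followed under the alternatives. Leaving out 1 cord gave 65 to 324 calls over all genes for male against female cords, beside 233 in the main fit. In the male minus female response to paclitaxel, 3 of 87 genes were called, where 4.96% of all tested genes were. These calls cannot be told apart from library number, which splits the groups in the same way. Tnfaip2 had 4.64 ± 0.672 CPM in male paclitaxel and 3.16 ± 0.337 CPM in male vehicle cords, against 3.76 ± 0.304 CPM in female paclitaxel and 3.82 ± 0.366 CPM in female vehicle cords, a difference of 0.60 (SE 0.14, edgeR adjusted p = 0.0204). Chuk, which encodes the kinase IKK alpha, had a difference of -0.29 (SE 0.06, edgeR adjusted p = 0.0153), and the deubiquitinase gene Cyld of -0.18 (SE 0.05, edgeR adjusted p = 0.0494). None of these sex by treatment calls held with the ganglion-like library included.

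The levels of some members followed macrophage and microglia markers from cord to cord. For each of 2 lists, the mean log2(CPM + 0.1) of its genes was correlated with that of each member over 23 cords, 20 relations in all, with permutation p values adjusted by the Benjamini-Hochberg method. With the 14 microglia markers, Tlr2 had r = 0.72 (permutation p = 3.10e-04, adjusted 0.00360) and rho = 0.63 (p = 0.00155, adjusted 0.0155). Cd14 had r = 0.63 (permutation p = 0.00127, adjusted 0.00847) and rho = 0.63 (p = 0.00154, adjusted 0.0155), and Tlr1 had r = 0.68 (permutation p = 3.60e-04, adjusted 0.00360) and rho = 0.60 (p = 0.00266, adjusted 0.0168). Tlr4 did not follow this list, with r = 0.05 (permutation p = 0.839, adjusted 0.954) and rho = -0.02 (p = 0.933). With the 10 border macrophage markers, Tlr4 had r = 0.57 (permutation p = 0.00493, adjusted 0.0197) and rho = 0.52 (p = 0.0127, adjusted 0.0509), and Tlr1 had r = 0.59 (permutation p = 0.00296, adjusted 0.0148) and rho = 0.59 (p = 0.00337, adjusted 0.0168). Without the 2 cords farthest from the median of each list, r was 0.59 for Tlr2 and 0.61 for Cd14 with microglia markers and 0.64 for Tlr1 with border macrophage markers, each with an adjusted p of 0.0236. It was 0.42 for Tlr4 with border macrophage markers and 0.42 for Tlr1 with microglia markers (adjusted p = 0.163 for both), so those relations did not pass without these cords. Leaving out the cords farthest on the marker level also narrows its range, which can itself lower r. One of the cords left out was wild-type male vehicle replicate 1, the highest cord in the microglia list. Each value was then taken as a deviation from the mean of its own group, 1 of 8. Deviations sum to 0 within a group, which the permutations did not keep, so their p values may be too small. On this scale r was 0.69 for Tlr4 with border macrophage markers. With microglia markers it was 0.61 for Tlr2, 0.56 for Cd14 and 0.67 for Tlr1, but none of these relations passed by rho. The rho values were 0.54 for Tlr4 and 0.55 for Tlr1 (adjusted p = 0.0563 for both), 0.26 for Tlr2 (adjusted p = 0.457) and 0.38 for Cd14 (adjusted p = 0.203). Ly96, Myd88, Ticam1, Tlr3, Tlr6 and Irak4 passed with neither list over the 23 cords. Cd14 with border macrophage markers passed by r without the farthest cords (r = 0.59) and as deviations from group means (r = 0.57), Tlr2 with border macrophage markers without the farthest cords (r = 0.55), and Ly96 with microglia markers as deviations (r = 0.52). None of these passed by rho, with adjusted p values of 0.0994, 0.101, 0.0799 and 0.0573.

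**Figure D5:**
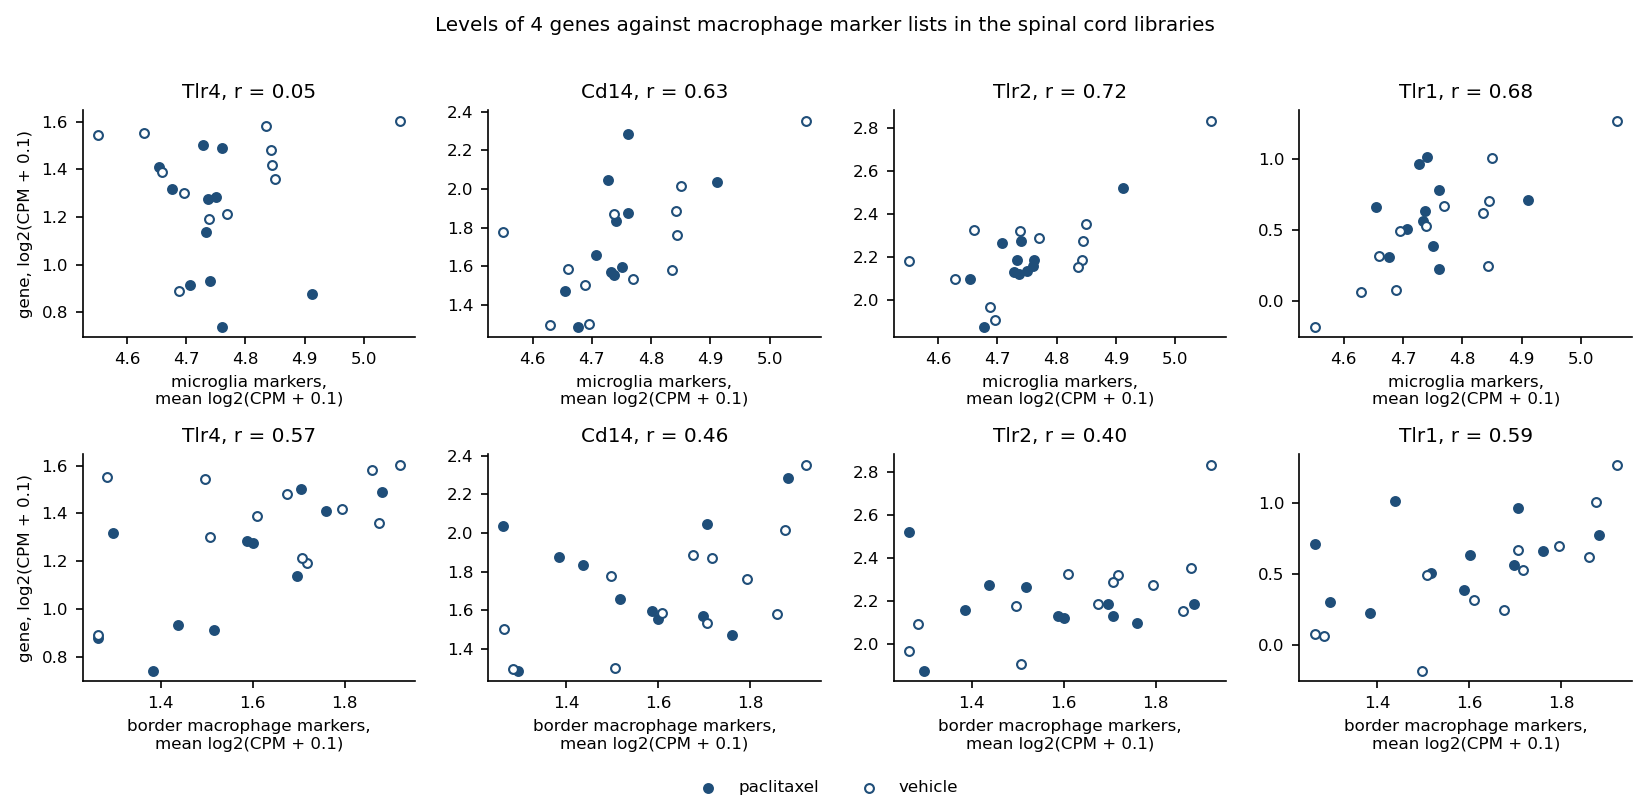
Level of Tlr4, Cd14, Tlr2 and Tlr1 (vertical, log2(CPM + 0.1)) against the mean level of microglia markers (upper row) and border macrophage markers (lower row) in the 23 cords, with filled points for paclitaxel and open points for vehicle. Tlr4 shows no trend with microglia markers (r = 0.05) and a trend with border macrophage markers (r = 0.57), and the point at the far right for microglia markers is wild-type male vehicle replicate 1.

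The genes whose levels were most like those of Tlr4 over the 23 cords were found among 15871 genes with a mean of at least 1 CPM, by Pearson's r on the log2(CPM + 0.1) scale. They were Pcdhb7, a protocadherin gene (r = 0.76), Gm37233 (r = 0.74), the interferon-induced Ifit1bl1 (r = 0.74), Ogn, which encodes the matrix proteoglycan osteoglycin (r = 0.74), and Gm20559 (r = 0.73). All come from the same libraries, and with so many genes the highest r values are large by selection. Of the 8 other members above that level, the most like was Tlr3 at rank 3890 (r = 0.25), and Ly96 had r = 0.14. Tlr6, with a median of 0.769 CPM, was below the level and was not ranked.

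The ganglion-like library held a different balance of the 10 genes. It had 709 counts of Tlr4, or 7.48 CPM (exact 95% Poisson interval 6.94 to 8.05), against 1.57 to 2.94 CPM in the 23 cords, a ratio of 3.13 to their median. Ly96 lay at 2.30 CPM (2.01 to 2.63) in it, against 0.997 to 2.03 CPM in the cords, and Myd88 at 7.96 CPM (7.40 to 8.55), against 5.65 to 7.85 CPM. These 3 genes were above every cord, though the intervals of Ly96 and Myd88 reached into the range of the cords. Tlr3 was far below, at 11.2 CPM against 24.9 to 35.3 CPM, and Tlr2 at 1.73 CPM against 3.57 to 7.02 CPM. Cd14 at 2.07 CPM (1.79 to 2.38) and Ticam1 at 5.10 CPM (4.65 to 5.57) lay just under their lowest cords of 2.34 and 5.11 CPM. Both intervals reached into the range of the cords. Tlr1, Tlr6 and Irak4 lay within that range. Lbp, which encodes the lipopolysaccharide-binding protein, lay at 13.6 CPM in this library and 1.56 to 5.22 CPM in the cords. The summed border macrophage markers, at 93.3 CPM, lay inside the cords' range of 44.9 to 99.3 CPM. It is 1 library with no replicate, so no test was made.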

How the data were processed

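The authors deposited 1 table of whole-number counts per gene symbol, with a summed exon length for each gene, and no normalization. The submitters' processing notes name STAR, with no version, featureCounts 1.6.2 and the build mm10 (GRCm38). Per the file headers, the counting command used exons of the Ensembl GRCm38 annotation summed by gene name and set no option for strand, read pairs or reads with several matches.

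CPM were computed from library totals and RPKM from the deposited lengths. Differences were tested with edgeR 4.0.16 (R 4.3.3): filterByExpr over the 8 groups, TMM factors, quasi-likelihood fits of all groups together and Benjamini-Hochberg adjustment over all tested genes, with 0.05 as the threshold. The ganglion-like library was left out and put back as an alternative. Other alternatives were RLE factors, no TMM factors, no filter, DESeq2 1.42.0, a replicate block and each cord left out. Correlations used SciPy 1.17.1 with 100000 permutations. The tests were tried on simulated counts first. No 2 replicates agreed within sampling noise (lowest chi-square per degree of freedom 8.98), and each library is a separate mouse, per the series' design text. The labels name no batch, but library number splits the groups as the male minus female response to paclitaxel does. Named genes were the members, Chrna7, Lyz2 as a marker known to differ, the 5 genes most like Tlr4, and per pathway list the called genes, or else up to 3 of lowest p for paclitaxel and for knockout. Csf1r, Cx3cr1, Selplg, Tnf, Il1b, Il6, Lbp, and the family members in the order of levels, were named after their values were seen. The members and lists were chosen with earlier results of these data known. Coding sequences came from GENCODE M21, which is of the same build.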

Additional observations from a re-analysis of the deposited data

Results flagged for a closer look

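In wild-type vehicle cords, Tlr2 was flagged because wild-type male vehicle replicate 1, at 7.02 CPM, lay far from the others, which had 3.82 to 5.005 CPM. In knockout paclitaxel cords, Tlr6 was flagged because knockout male paclitaxel replicate 2, at 1.11 CPM, lay far from the others, at 0.609 to 0.759 CPM. Both came from 40 groups tested with Dixon's ratio, and chance flags about 5% of groups. In the ganglion-like library, which the comparisons leave out, Tlr4 at 7.48 CPM, Ly96 at 2.30 CPM and Myd88 at 7.96 CPM exceeded the highest vehicle cords, which held 2.94, 1.87 and 7.51 CPM.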

How the results depend on the processing

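No member was called in any of the 9 comparisons under any of the 29 alternatives, 23 of which left out 1 cord, and the smallest adjusted p was 0.0602. Of 2610 member fold changes, 2469 kept their direction, 141 did not and 28 moved by over 1 SE. The counts of called genes over the whole table were less stable, and the cause was not tested. With all 24 libraries, paclitaxel calls were 0 in knockout and 0 over both genotypes, knockout calls 1 under vehicle and 0 under paclitaxel, and sex calls 28, with 0 for the sex difference in the paclitaxel response. Without the filter, paclitaxel calls were 254 in wild-type, 470 in knockout and 338 over both genotypes, knockout calls 111 under vehicle, 215 under paclitaxel and 99 over both treatments. Likewise, the genotype difference in the paclitaxel response gave 366, sex 749 and its difference in response 2181. With DESeq2, paclitaxel calls were 4 in wild-type, 137 in knockout and 167 over both genotypes, knockout calls 4 under vehicle, 3 under paclitaxel and 5 over both treatments, sex calls 583 and its difference in response 2376. Without TMM factors paclitaxel gave 3 calls over both genotypes. With the replicate number as a block, paclitaxel gave 9 over both genotypes, knockout under paclitaxel 0, and the sex difference in response 1891. Among same-numbered cords of different groups, 22 of 77 pairs correlated above 0.1 (median r 0.03, against -0.02 for other numbers). Of 23 cords, 13 correlated best with their own number out of the 3 replicate numbers, and the share due to chance was not worked out. Whether equal replicate numbers share a batch was not tested. Leaving out 1 cord gave 0 to 4 paclitaxel calls in wild-type, 0 to 332 in knockout and 2 to 62 over both genotypes. It gave 1 to 3 knockout calls under vehicle, 0 to 2 under paclitaxel and 3 to 5 over both treatments, 0 to 1 for the genotype difference in response, 65 to 324 for sex and 248 to 2419 for its difference in response. The 332, 62 and 2419 came without knockout male vehicle replicate 1, and the 2, 65 and 248 without wild-type female paclitaxel replicate 1. The log2 fold change of Tlr4 with paclitaxel over both genotypes ranged from -0.27 to 0.00 (edgeR adjusted p from 0.242 to 0.998). Counting error at the median count was 11.7% for Tlr6, 8.80% for Tlr1 and 8.64% for Ly96.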
